A study of Homo sapiens with 4 samples.

Results

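Immediate early genes are transcribed within minutes of serum or growth factor addition, without new protein synthesis, and their mRNAs are usually short-lived. Serum activates the ERK cascade and the factor SRF with its cofactors, and many of the genes encode transcription factors that then drive a delayed set of genes. The genes described here are FOS, FOSB, JUN, JUNB, EGR1, IER2, MYC, ATF3, DUSP1 and KLF6, 10 of the 44591 genes in the count tables. They were found by an exact match of gene symbol, and all 10 passed the filter of at least 5 counts summed over the libraries.

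Poly(A) RNA-seq was performed in 4 libraries labelled HepG2, a human hepatocellular carcinoma line. Of these, 2 came from cells transfected with siNC, the control siRNA, and 2 from cells transfected with siLINC01186, which targets the long noncoding RNA LINC01186, also called SALIS. Both groups were transfected, kept for 6 h in medium without serum and then 24 h in medium with 10% serum, so every library was made a day after serum return and no library without serum was compared. By the study's description the replicates received the same siNC but different oligos against LINC01186, and the labels do not say which library received which oligo. Nothing in the labels says whether libraries of one replicate number share a day or a culture. P-values below measure the spread between these libraries, which may be technical.

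The libraries held 14968958 to 17297245 counts. Reads of LINC01186 itself numbered 15 and 14 with siNC and 12 and 14 with siLINC01186, a ratio of 0.920 with a 95% counting interval of 0.520 to 1.62, so its level does not separate the groups and the libraries are named by their labels. The hepatocyte-lineage markers of the HepG2 label were low or near 0 and do not bear out that label. The identity of the cells was not tested. Of 9 markers only HNF4A had a mean of at least 1 CPM, read counts scaled to 1e+06 per TMM-scaled library, and ALB, the albumin gene, had 0 and 0 counts in replicate 1 and 15 and 14 in replicate 2. The 8 markers that passed the filter summed to 4.96 and 6.37 CPM in replicate 1 and to 15.6 and 14.6 CPM in replicate 2. The summed level of 5 fibroblast markers was 44.6 to 48.9 CPM in replicate 1 and 65.6 to 75.2 CPM in replicate 2. The 3 of 5 leukocyte markers that passed summed to 3.76 and 4.20 CPM in replicate 1 and to 7.87 and 5.40 CPM in replicate 2, with 1 of the 5 at 0 in all libraries. The 3 of 4 endothelial markers that passed summed to 1.79 and 3.22 CPM in replicate 1 and to 2.23 and 1.97 CPM in replicate 2, which overlap, with 1 of the 4 at 0 in all libraries. The hepatocyte-lineage, fibroblast and leukocyte sums move with the replicate number, and their part in the results below was not tested.

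The promoters are shown first, because serum-response genes are usually described by the elements they carry. RefSeq promoters of GRCh38.p14, from 250 bases before to 50 after the start site, were matched for 9 members. MYC had no entry, and ATF3 had 2. The 150 bases before the start site are printed for the 5 members whose levels are compared most below, 5′ to 3′ on the gene's strand, with capitals for the CRE half-site TGACG or its complement CGTCA, the CArG box and the TATA box TATAAA.
FOS, chr14:75278678-75278827, plus strand: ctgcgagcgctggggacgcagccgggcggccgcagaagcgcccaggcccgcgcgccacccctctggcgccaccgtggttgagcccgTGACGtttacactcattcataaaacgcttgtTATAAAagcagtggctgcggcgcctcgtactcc
FOSB, chr19:45467846-45467995, plus strand: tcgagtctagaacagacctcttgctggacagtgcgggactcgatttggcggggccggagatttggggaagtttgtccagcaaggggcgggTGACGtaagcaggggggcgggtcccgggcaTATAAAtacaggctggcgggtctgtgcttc
JUNB, chr19:12791336-12791485, plus strand: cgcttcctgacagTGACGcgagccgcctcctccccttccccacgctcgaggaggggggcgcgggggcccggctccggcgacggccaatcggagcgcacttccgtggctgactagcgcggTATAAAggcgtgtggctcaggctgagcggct
EGR1, chr5:138465329-138465478, plus strand: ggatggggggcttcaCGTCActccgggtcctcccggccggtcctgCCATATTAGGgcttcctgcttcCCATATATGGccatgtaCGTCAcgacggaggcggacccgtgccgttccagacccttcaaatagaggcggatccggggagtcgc
DUSP1, chr5:172771196-172771345, minus strand: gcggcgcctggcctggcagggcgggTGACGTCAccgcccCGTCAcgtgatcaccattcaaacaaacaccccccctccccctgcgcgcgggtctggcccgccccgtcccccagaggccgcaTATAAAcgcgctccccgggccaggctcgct

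The CRE half-site, bound by CREB and ATF proteins, was found on either strand in 7 of 9 members, against 24.6% of all 35116 promoters of the same length. The 7 were FOS, FOSB, JUN, JUNB, EGR1, IER2 and DUSP1. The full palindrome TGACGTCA, which contains the half-site on both strands, was found in DUSP1 alone among the 9, against 1.85% of promoters. Within this window the CArG box, the SRF element, was matched in EGR1 alone, against 1.29% of promoters. Its matches started 105 and 83 bases before the start site. The TATA box was found in 5 of 9 members, against 7.33% of promoters. It lay 30 to 33 bases before the start site in FOS, FOSB, JUNB and DUSP1. In ATF3 it was matched only in promoter 2, at 230 bases before the start site. A member was counted if any of its promoters matched, whereas the background counts single promoters. The ETS core GGAAG was found in 7 of 9 members against 71.9% of promoters, the GC box GGGCGG in 7 of 9 against 45%, and the AP-1 site TGANTCA in 0 of 9 against 7.71%. A match says only that these letters lie in the window. A missing match does not exclude the element, because bases further from the start site and inexact matches were not searched.

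**Figure D1:**
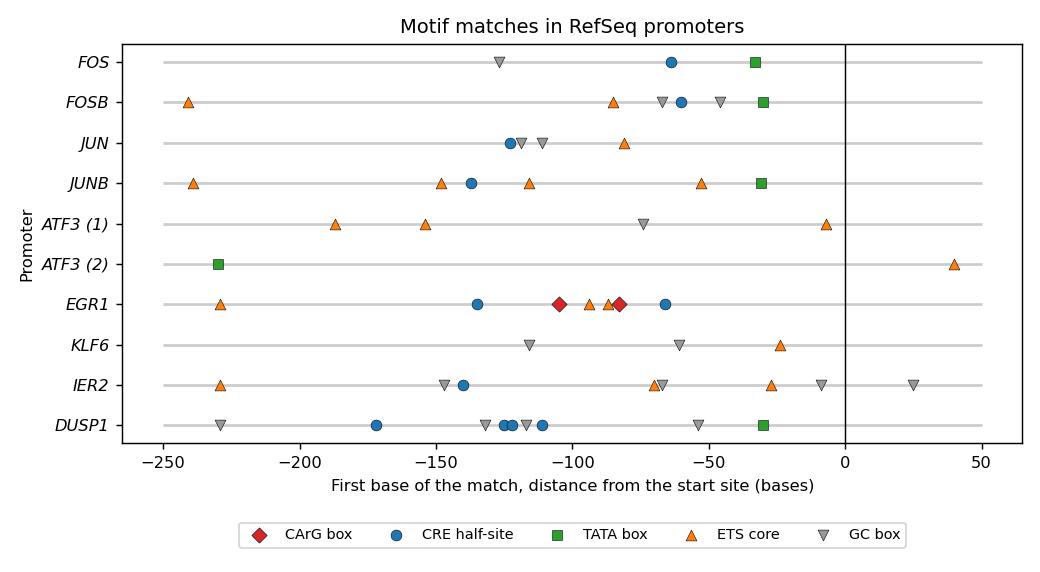
Motif matches in the RefSeq promoters of 9 immediate early genes, with the first base of each match by distance from the start site in bases (x) and 1 line for each promoter (y, both ATF3 promoters shown). The CRE half-site was in 7 of 9 genes, and the CArG box in EGR1 alone. Only the bases from 250 before to 50 after the start site were searched.

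Most of the mRNAs hold another element, the AU-rich pentamer ATTTA, which marks short-lived mRNAs for decay by proteins such as ZFP36. In the longest GENCODE release 29 3′UTR of each gene, at least 3 pentamers were present in 7 of 10 members, against 41.3% of 19132 genes. KLF6 held 6 pentamers in 3556 bases, FOS 5 in 806, DUSP1 4 in 672 and MYC 4 in 476, whereas EGR1 held 1 and IER2 0. The median was 2.39 pentamers per 1000 bases in the members and 1.58 in genes with a 3′UTR of at least 100 bases. The densest stretches of FOS, from base 623 to base 652 of the 3′UTR, and of DUSP1, from base 82 to base 111, are printed with the overlapping pentamers in capitals.
FOS: aaacgttttattgtgtttttaATTTATTTA
DUSP1: ggctcgagagggctggtccttATTTATTTA
The counts of these elements describe the genes and were not related to the levels below by any test.

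Levels were compared between genes per length, in TPM. MYC, the growth-regulating bHLH factor, was the most abundant, with 237 to 340 TPM over the 4 libraries and a mean at percentile 98.4 of the genes tested. The AP-1 subunit JUNB followed with 115 to 164 TPM, IER2 with 88.9 to 114 TPM, DUSP1 with 46.6 to 70.0 TPM and JUN with 24.5 to 27.7 TPM. These ranges do not overlap, although those of JUNB and IER2 all but touch. FOS with 8.88 to 14.0 TPM, ATF3 with 9.21 to 12.9 TPM, KLF6 with 7.40 to 9.40 TPM and EGR1 with 5.70 to 11.4 TPM had overlapping ranges, so their order is not resolved by these libraries. FOSB was lowest, with 2.40 to 5.08 TPM and a mean at percentile 48.8. A day after serum return the members therefore covered the upper part of the expression range, from close to its median to near its top.

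**Figure D2:**
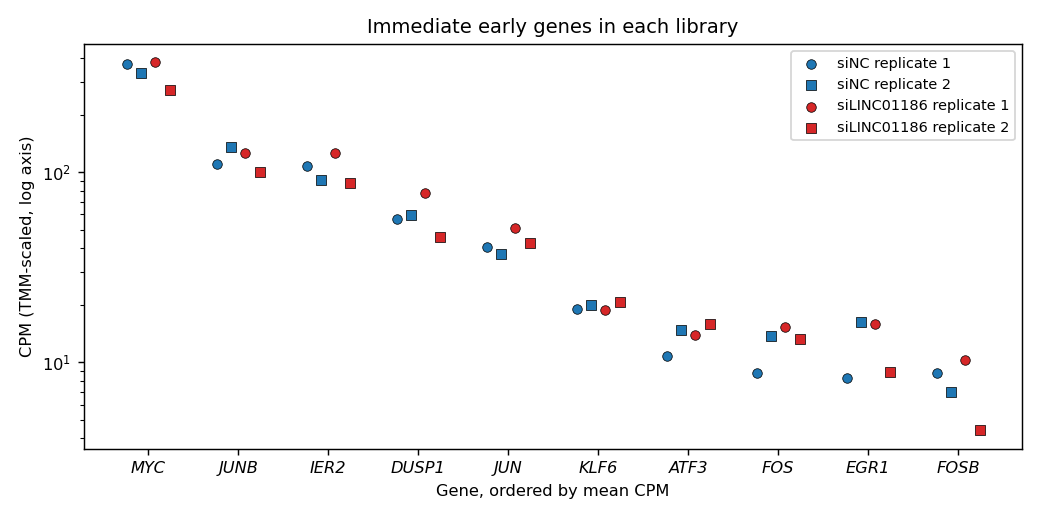
CPM of the 10 immediate early genes in each of the 4 libraries (y, log axis), ordered by mean CPM (x), with siNC in blue, siLINC01186 in red, circles for replicate 1 and squares for replicate 2. MYC sits at 271 to 378 CPM and FOSB at 4.39 to 10.3 CPM, and within most genes the blue and red points interleave.

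The first comparison asked whether the libraries labelled siLINC01186 differed from siNC in serum-response genes. None of the 10 members passed an adjusted p of 0.05 in edgeR's quasi-likelihood test, where 0 of 23942 genes passed (0%), 289 genes had an unadjusted p under 0.05 and DESeq2's Wald test called 1 gene. None passed an unadjusted p of 0.05 with a log2 fold change of at least 1 either, against 0.756% of genes. Fitted fold changes were above 0 in 7 members and below 0 in 3, with a median of 0.05 on the log2 scale, and the median over all genes was 0.00453. With the replicate number as a block 1.16% of genes were called and again 0 members, the smallest adjusted p among them being 0.534, for FOS. In that blocked edgeR fit 2 members, FOS and JUN, had an unadjusted p under 0.05 with a fold change above 0. Of all 23942 genes 2005 had an unadjusted p under 0.05 there. In bulk libraries such as these, fewer cells expressing a gene and less RNA per cell cannot be told apart.

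Of the AP-1 subunits, FOS, the serum-induced partner of JUN (hg19 chromosome 14, 75745481 to 75748937), had 8.84 and 13.8 CPM in siNC and 15.4 and 13.3 CPM in siLINC01186, in the order of replicates 1 and 2. Only siNC replicate 1 stood low, and the groups overlapped. The fitted log2 fold change was 0.34 (SE 0.28, adjusted p = 1.00). FOSB, a close relative of FOS (chromosome 19, 45971253 to 45978437), had 8.84 and 7.00 CPM in siNC and 10.3 and 4.39 CPM in siLINC01186. The siLINC01186 libraries were both the highest and the lowest, and the log2 fold change was −0.12 (SE 0.40, adjusted p = 1.00).

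JUN, the central AP-1 subunit (chromosome 1, 59246463 to 59249785), had 40.4 and 37.0 CPM in siNC and 50.7 and 42.4 CPM in siLINC01186. It was the only member whose groups did not overlap, against 23.7% of the 15203 genes with a mean of at least 1 CPM. Its log2 fold change was 0.26 (SE 0.19, adjusted p = 1.00). JUNB, which dimerises with FOS proteins and is a weaker activator than JUN (chromosome 19, 12902310 to 12904125), had 110 and 136 CPM in siNC and 127 and 101 CPM in siLINC01186. The highest and the lowest JUNB values both came from replicate 2. ATF3, a stress-induced bZIP factor that can repress transcription (chromosome 1, 212738676 to 212794119), had 10.8 and 14.9 CPM in siNC and 14.0 and 15.9 CPM in siLINC01186, with a log2 fold change of 0.22 (SE 0.25, adjusted p = 1.00).

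EGR1, a zinc-finger factor induced through SRF (chromosome 5, 137801181 to 137805004), varied most from pair to pair. It had 8.24 and 16.2 CPM in siNC and 16.0 and 8.89 CPM in siLINC01186, so that each group held 1 high and 1 low library. The group means were 12.2 ± 5.65 and 12.4 ± 5.00 CPM (SD, n = 2 each), and the log2 fold change was 0.02 (SE 0.38, adjusted p = 1.00). KLF6, another zinc-finger factor (chromosome 10, 3818188 to 3827473), was the steadiest member in CPM, with 19.1 and 19.9 CPM in siNC and 19.0 and 20.8 CPM in siLINC01186. Its highest library was 1.10 times its lowest, whereas this ratio was 1.97 in EGR1 and 2.34 in FOSB. On the TPM scale the ratio was 1.27 in KLF6 and lowest in JUN, at 1.13.

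MYC had 371 and 332 CPM in siNC and 378 and 271 CPM in siLINC01186. IER2, a short nuclear protein of the immediate early response (chromosome 19, 13261282 to 13265722), had 107 and 91.6 CPM in siNC and 126 and 88.1 CPM in siLINC01186. DUSP1, the phosphatase that switches MAP kinases off again (chromosome 5, 172195093 to 172198203), had 57.0 and 59.7 CPM in siNC and 77.9 and 45.6 CPM in siLINC01186. In each of these 3 genes the siLINC01186 libraries lay on either side of the siNC libraries. Their log2 fold changes were −0.11 (SE 0.21), 0.10 (SE 0.22) and 0.08 (SE 0.25), each with an adjusted p of 1.00.

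Within each replicate number the libraries can be set side by side, 1 against 1, which gives values and no test. In replicate 1 siLINC01186 was above siNC in 9 of 10 members, with KLF6 at −0.01 on the log2 CPM scale, and the median difference was 0.28. In replicate 2 it was above siNC in 3 of 10, JUN, ATF3 and KLF6, and the median difference was −0.17. Over all genes with a mean of at least 1 CPM, 50.6% and 49% were above siNC. On the CPM scale a difference that was positive in replicate 1 and negative in replicate 2 was found in 7 of 10 members. It was found in 22 of 37 other immediate early genes and in 22.6% of all 15203 genes. The 2 pairs come from different libraries, but whether they differ could not be tested, because no residual degree of freedom is left.

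The widest spans between the 2 pairs were those of EGR1, FOSB, FOS and DUSP1. The ratio of siLINC01186 to siNC for EGR1 was 1.94 (95% counting interval 1.56 to 2.41) in replicate 1 and 0.548 (0.447 to 0.670) in replicate 2. For DUSP1 it was 1.37 (1.25 to 1.49) and 0.764 (0.695 to 0.840), and for JUNB 1.15 (1.07 to 1.22) and 0.741 (0.696 to 0.789). For these 3 genes both intervals lay clear of 1, on opposite sides. The share of all genes with such intervals was not counted, so the 3 have no background beside them. FOS moved mainly in replicate 1, with ratios of 1.74 (1.41 to 2.16) and 0.966 (0.801 to 1.17), and FOSB mainly in replicate 2, with 1.16 (0.920 to 1.47) and 0.627 (0.464 to 0.844). The intervals use TMM-scaled library sizes and cover counting error only, not the spread between cultures or the choice of scale.

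The directions of the small differences depend on the scale. On the deposited TPM values 5 of 10 members, FOS, JUN, ATF3, EGR1 and DUSP1, were above siNC in replicate 1. FOSB, JUNB, IER2 and MYC turned to slightly below. The share of all genes above siNC was not counted on TPM, so the 5 of 10 has no background beside it. Every member's replicate 1 difference was lower on TPM than on CPM, with FOS at 0.55 against 0.79. The small RNA gene MIR6087 held 1.16% and 1.91% of all TPM with siNC and 13.8% and 8.69% with siLINC01186, and its part in this was not tested. EGR1, DUSP1 and FOS kept their direction on TPM in both pairs, EGR1 with log2 differences of 0.70 and −0.95. They were the only members positive in replicate 1 and negative in replicate 2 on TPM, against 7 of 10 on CPM. No member reached a log2 difference of 1 in either pair on the CPM scale, where 1.24% and 1.50% of genes did.

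**Figure D3:**
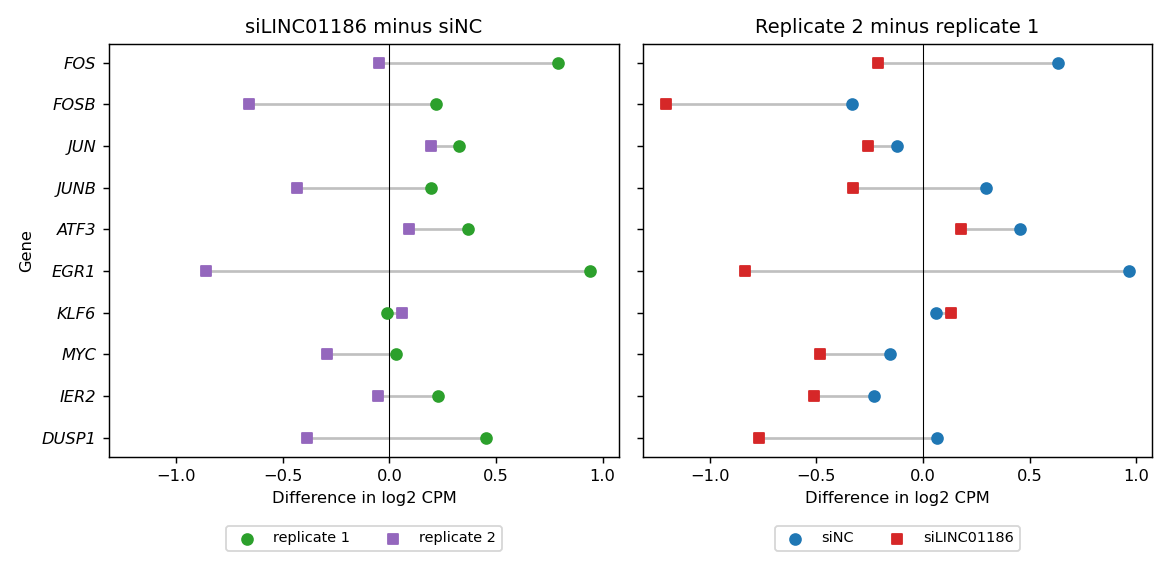
Differences in log2 CPM for the 10 members (y), between siLINC01186 and siNC within replicate 1 (green) and replicate 2 (purple) on the left, and between replicate 2 and replicate 1 within siNC (blue) and siLINC01186 (red) on the right, each from 1 library against 1. Green points lie right of 0 in 9 members, purple points in 3, and EGR1 spans 0.94 to −0.86.

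**Figure D4:**
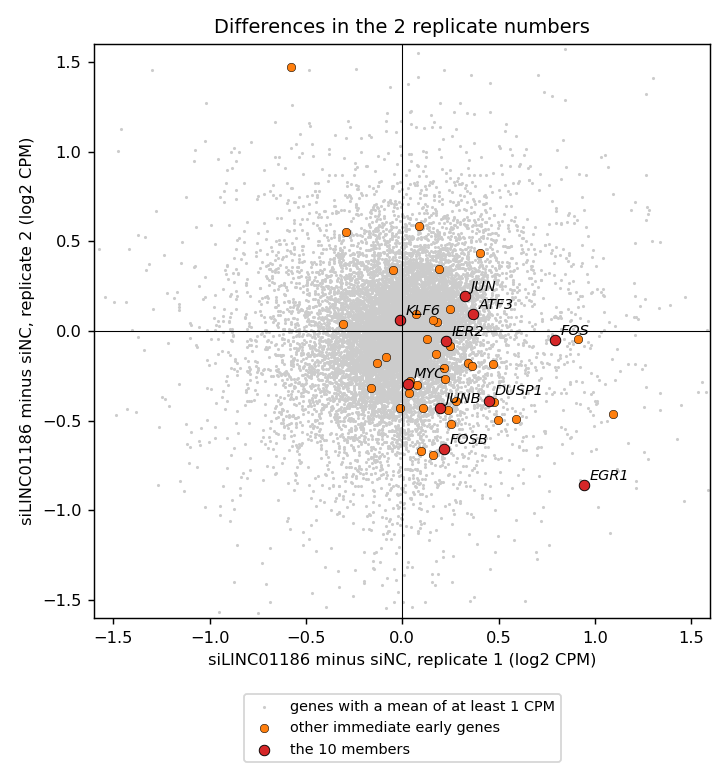
Difference in log2 CPM between siLINC01186 and siNC in replicate 1 (x) and replicate 2 (y) for 15203 genes with a mean of at least 1 CPM (grey), 37 other immediate early genes (orange) and the 10 members (red). The axes end at 1.6 and leave out 49 genes, and 7 members lie to the right of 0 and below 0.

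The second comparison set replicate 2 against replicate 1, which the study describes as 2 biological repeats under the same serum schedule. No member passed an adjusted p of 0.05 with edgeR, while 2158 of 23942 genes did (9.01%). At an unadjusted p under 0.05 there were 4 such members, all lower in replicate 2, and 5599 of all genes, and DESeq2's Wald test called 0 members and 1558 genes. Of the members 6 were lower in replicate 2 and 4 higher, with a median log2 fold change of −0.10 against 0.02 for all genes. FOSB came closest, with 9.56 ± 1.03 CPM in replicate 1 and 5.69 ± 1.85 CPM in replicate 2 (SD, n = 2 each), a log2 fold change of −0.75 (SE 0.23, adjusted p = 0.0542). IER2 followed with −0.37 (SE 0.13, adjusted p = 0.0766), MYC with −0.31 (SE 0.12, adjusted p = 0.122) and DUSP1 with −0.36 (SE 0.17, adjusted p = 0.204).

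With the treatment group as a term in the same fit, these 4 members passed the threshold, all lower in replicate 2, and 17.5% of all genes did. The adjusted p was 0.00175 for FOSB, 0.0113 for MYC, 0.0121 for IER2 and 0.0353 for DUSP1 (edgeR), and the fold change of FOSB was −0.76. FOSB, IER2 and MYC were below replicate 1 in both libraries of replicate 2, and ATF3 and KLF6 above, so that 5 of 10 members did not overlap between replicates, against 60.2% of genes. ATF3 had a log2 fold change of 0.31 (SE 0.18, adjusted p = 0.314) and KLF6 of 0.10 (SE 0.15, adjusted p = 0.760), and neither passed in either fit.

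The separation was uneven between the groups. In siLINC01186, replicate 2 was lower than replicate 1 in 8 of 10 members, with FOSB at −1.21, EGR1 at −0.84, DUSP1 at −0.77 and IER2 at −0.51 on the log2 CPM scale. In siNC it was higher in 6 of 10, with EGR1 at 0.97, FOS at 0.63 and ATF3 at 0.46. Over the 15203 genes, 47.7% were higher in replicate 2 in siLINC01186 and 48.8% in siNC. FOSB in siLINC01186 was the only member beyond a log2 difference of 1, where 6.24% of genes were in siLINC01186 and 5.33% in siNC. These comparisons use the same 4 libraries as the pairs above, so both sets of differences come from one set of values.

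The rest of the serum response was described with gene lists, read against the 9.01% of all genes called between replicates. Of 37 other immediate early genes 2 rose and 7 fell in replicate 2. The AP-1 subunit gene FOSL1 fell from 101 and 90.1 CPM to 43.9 and 35.2 CPM (siNC and siLINC01186), a log2 fold change of −1.28 (SE 0.14, adjusted p = 0.000132). CYR61, a matrix protein gene and SRF and YAP target, fell by 0.94 on the log2 scale, MAFF by 0.83 and SRF itself by 0.63. BTG2, an antiproliferative gene, rose by 0.97, with 9.37 and 12.5 CPM in replicate 1 and 18.1 and 24.5 CPM in replicate 2, and the repressor gene NFIL3 rose by 0.84. Within the pairs 29 of the 37 were above siNC in replicate 1 and 11 in replicate 2, with median differences of 0.18 and −0.18.

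Of 15 genes that report or restrain ERK signalling, 0 rose and 4 fell in replicate 2, and 14 had a fold change below 0, with a median of −0.35. The 4 were EPHA2, a receptor kinase gene, at −0.84, the cyclin gene CCND1 at −0.86, the ERK inhibitor gene SPRY4 at −0.81 and PHLDA1 at −0.50. SPRY4 had 11.6 and 15.5 CPM in replicate 1 and 9.60 and 5.80 CPM in replicate 2, in the order siNC and siLINC01186, and so ordered the libraries from high to low as FOSB, IER2 and MYC did. Within the pairs 10 of the 15 were above siNC in replicate 1 and 1 in replicate 2. With the block CCND1 was lower in siLINC01186 (log2 fold change −0.47, edgeR adjusted p = 0.0018), while without it the adjusted p was 1.00. The log2 CPM difference of CCND1 from siNC was −0.12 in replicate 1 and −0.82 in replicate 2.

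Of 17 cytoskeletal SRF targets, 1 rose and 5 fell in replicate 2. ACTB, which encodes beta-actin, fell from 5538 and 6053 CPM to 3038 and 3068 CPM, and ACTG1 and ZYX fell by 0.85 and 0.70 on the log2 scale. ACTA2, the smooth muscle actin gene, rose by 1.21. Of 17 genes for SRF cofactors and the ERK cascade, 1 rose, the ERK1 gene MAPK3 (0.52), and 2 fell, SRF and its cofactor gene ELK4 (−0.50). Of 13 delayed serum-response genes 0 rose and 5 fell, among them HMGA1 (−0.66) and HMGA2 (−1.02), which encode chromatin proteins of proliferating cells, with a list median of −0.34. HMGA1 and HMGA2 were lower in siLINC01186 with the block (edgeR adjusted p = 0.0066 and 0.0378) and had an adjusted p of 1.00 without it. The log2 CPM differences from siNC lay mainly in replicate 2. They were −0.09 in replicate 1 and −0.62 in replicate 2 for HMGA1, and −0.04 and −1.13 for HMGA2.

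Of 14 MYC target genes 10 fell in replicate 2, 0 rose, and all 14 had a fold change below 0, with a median of −0.59. ODC1, the rate-limiting enzyme gene of polyamine synthesis, fell from 320 and 331 CPM to 157 and 147 CPM (siNC and siLINC01186), a log2 fold change of −1.10 (SE 0.11). The ribosome biogenesis genes RRP9 (−1.15), NOP56 (−0.83), BOP1 (−0.82) and NCL (−0.62) and the spermidine synthase gene SRM (−0.83) fell too. MYC mRNA itself differed less, by −0.31 as given above. Of 8 genes of the MYC network 0 were called. With the treatment term the MYC antagonist gene MXI1 rose (0.51, edgeR adjusted p = 0.0013) and MLX fell (−0.32, edgeR adjusted p = 0.0447).

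Of 11 genes for proteins that act on AU-rich mRNAs, 0 rose and 3 fell, KHSRP (−0.54), ELAVL1 (−0.53) and HNRNPD (−0.45). ZFP36L2 and ZFP36L1 had −0.45 and −0.38 and passed only with the treatment term. Of 11 other dual specificity phosphatase genes, DUSP9 (0.64) and DUSP16 (0.56) rose and DUSP2 (−0.57) and DUSP7 (−0.53) fell. Of 12 other KLF genes, KLF7 (0.72) and KLF9 (0.78) rose and KLF16 (−0.66) fell, and the list median was 0.23. Of 14 tested AP-1 partners and other bZIP genes, ATF5 (−1.26) and MAFK (−0.42) fell. In this list DDIT3, the stress factor gene CHOP, had 7.94 and 8.55 CPM in siNC and 13.7 and 14.2 CPM in siLINC01186, and with the block it was higher in siLINC01186 (log2 fold change 0.76, edgeR adjusted p = 0.0041), while without the block the adjusted p was 1.00. Without the block 0 genes of any list passed between siLINC01186 and siNC. The lists overlap in some genes, and the hepatocyte-lineage, fibroblast and leukocyte marker sums given at the start differ between replicates in the same libraries.

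**Figure D5:**
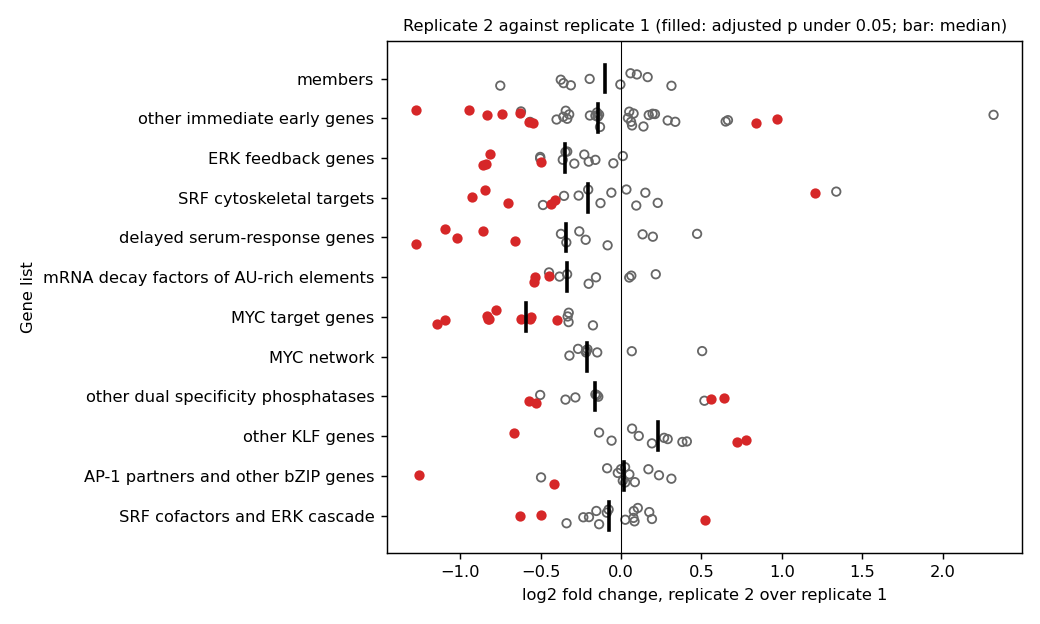
Fitted log2 fold change of replicate 2 over replicate 1 (x) for each tested gene of the 10 members and of 11 gene lists (y, points spread vertically for legibility), filled where the edgeR adjusted p was under 0.05, with a bar at the list median. The members have 0 filled points and a median of −0.10, and the MYC target genes 10 filled points and a median of −0.59.

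The genes whose levels over the 4 libraries were most like those of FOS were looked up among 15202 genes by Euclidean distance of log2 CPM centred on each gene's mean. Among the nearest were PRDM1 (distance 0.0810), BLOC1S5 (0.0817), BACE1-AS (0.0830) and FAM76A (0.101). PRDM1, the repressor gene BLIMP1, had 17.8 and 27.1 CPM in siNC and 30.4 and 24.8 CPM in siLINC01186, again with siNC replicate 1 lowest. None of these is in the immediate early lists used here, and the likeness rests on 4 libraries.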

How the data were processed

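The authors deposited unnormalized read counts and TPM values for each gene and library, with gene positions in hg19. The submitters' processing notes name HISAT2, TopHat2, Bowtie2 and HISAT without roles, and the counting program is not given in the sources used here. Of the gene IDs, 2 occur more than once. The tests used edgeR 4.0.16 in R 4.3.3. Genes whose 4 libraries summed to 5 counts or more were kept, scaled by TMM and compared with the quasi-likelihood test without a block, with Benjamini-Hochberg adjustment over all 23942 genes. CPM used the TMM-scaled library size, and differences between single libraries a prior count of 2. Counting intervals are exact at the 95% level, and 3 counts correspond to 0.169 to 0.210 CPM. Scripts were tested on simulated data.

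The members and lists were chosen with earlier results of these data known. Named genes are the members, LINC01186, up to 6 called genes per list by the smallest p between replicates, and the 5 genes nearest to FOS, of which 1 is not reported here. Motifs were counted with Python 3.11.15. Alternatives were DESeq2 1.42.0, other scalings and filters, the replicate or treatment term and leaving out each library.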

Additional observations from a re-analysis of the deposited data

Results flagged for a closer look

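On the CPM scale the difference between siLINC01186 and siNC had opposite signs in the 2 replicate numbers in 3 members. Both counting intervals were clear of no change. How many of all genes have such intervals was not counted. For EGR1 the log2 CPM difference was 0.9434 in replicate 1 and −0.8593 in replicate 2. For DUSP1 it was 0.4509 and −0.3873, and for JUNB 0.196 and −0.4314. On deposited TPM JUNB was below siNC in both pairs, at −0.058 and −0.518, whereas EGR1 and DUSP1 kept their opposite signs. Each value comes from 1 library against 1, and the difference between the replicate numbers was not tested.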

How the results depend on the processing

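Of 200 alternative values for single members, 170 kept their direction and side of the threshold. Between siLINC01186 and siNC, genes past the adjusted p numbered 1 with DESeq2's Wald test, 5 with at least 1 count in any library, 278 with the replicate block and 0 to 6 leaving out a library. Genes past the unadjusted limits numbered 27 with DESeq2's Wald test, 46 with edgeR's expression filter and 248 to 375 leaving out a library. Between replicates 4191 genes were called with the treatment term and 1294 to 3332 leaving out a library. Members called there numbered 2 with at least 1 count (FOSB and IER2), 4 with the treatment term and 0 to 4 leaving out a library (FOSB without siNC replicate 1, and FOSB, IER2, MYC and DUSP1 without siNC replicate 2). With at least 1 count in any library, 3129 of 30582 genes were called between replicates. On deposited TPM, a scale added after seeing the data, 5 members were above siNC in replicate 1. The share of all genes was not counted on that scale. JUNB between replicates reversed with library totals alone (0.11) and with edgeR's filter (0.00877). Library totals moved the median of all genes from 0.02 to 0.13. Leaving out a library reversed the log2 fold change of 7 members between groups, with ranges of −0.85 to 0.37 for FOSB, −0.46 to 0.59 for EGR1, −0.35 to 0.41 for DUSP1, −0.17 to 0.33 for IER2, −0.290 to 0.0422 for JUNB, −0.0474 to 0.0933 for KLF6 and −0.37 to 0.10 for MYC. The other 3 stayed above 0, with ranges of 0.06 to 0.70 for FOS, 0.13 to 0.38 for JUN and 0.00733 to 0.472 for ATF3. Between replicates the ranges were −0.41 to 0.60 for EGR1, −0.19 to 0.61 for FOS and −0.21 to 0.19 for JUNB. The causes were not tested. Libraries with the same number deviated together from the group means (correlation 0.619 across genes), but the 2 pairs share only a number in the labels, so the block stayed an alternative. With 2 libraries a group, the SE of a member's log2 fold change between groups was 0.19 to 0.40.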
